A study of Mus musculus with 4 samples.

Results

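The lung-identity transcription factors are 9 genes, Tbx2, Tbx3, Tbx4, Tbx5, Foxf1, Nkx2-1, Foxa1, Foxa2 and Foxj1, of the 19465 genes in the files. They were chosen by name, and with their higher level in lung than in primary tumour of these sections known, so that difference is given below as a description with no test. They were measured by 10x Visium on formalin-fixed, paraffin-embedded sections, a probe-based assay that counts unique molecular identifiers (UMIs, each a captured probe pair) in spots that can hold several cells. There were 4 sections, the primary tumour and the lung of each of 2 BALB/c mice, named Mouse_627 and Mouse_628 in the labels. Each mouse had received 100000 cells of 4T1, a syngeneic triple-negative mammary carcinoma line, in the mammary fat pad at 8 weeks of age, and tissue was taken 28 days later. All sections thus came from tumour-bearing animals, and no lung of an uninjected mouse was analysed here. The 9339 spots with more than 200 detected genes were used, of 9445 under tissue.

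As background, the lung arises from foregut endoderm, which gives the airway and alveolar epithelium, and from the mesoderm around it, which gives fibroblasts, smooth muscle and vessels. Nkx2-1 marks the lung endoderm and later drives surfactant genes in alveolar type 2 cells. Foxa1 and Foxa2 are forkhead factors that open chromatin in endodermal cells, and Foxj1 drives the programme of motile cilia. Tbx4 and Tbx5 act in lung mesenchyme during bud outgrowth and tracheal patterning, Tbx2 and Tbx3 are repressors that keep the embryonic lung mesenchyme proliferating, and Foxf1 is required for lung mesenchyme and for the capillary endothelium. The 5 genes Tbx2, Tbx3, Tbx4, Tbx5 and Foxf1 are called mesenchymal factors here and the other 4 epithelial factors.

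By GENCODE vM21 on GRCm38 (mm10), Tbx2 (ENSMUSG00000000093) lies on chromosome 11 from 85832551 to 85841948 and Tbx4 (ENSMUSG00000000094) on the same chromosome from 85886422 to 85916097, both on the plus strand and 44.5 kb apart. Tbx3 (ENSMUSG00000018604, 119670669 to 119684724) and Tbx5 (ENSMUSG00000018263, 119832668 to 119885219) form a second such pair, on the plus strand of chromosome 5, 147.9 kb apart with no annotated protein-coding gene between them. Foxf1 (ENSMUSG00000042812) spans 121084386 to 121088144 on the plus strand of chromosome 8. Nkx2-1 (ENSMUSG00000001496, 56531958 to 56536908) and Foxa1 (ENSMUSG00000035451, 57540628 to 57546916) are both on the minus strand of chromosome 12. Foxa2 (ENSMUSG00000037025) spans 148042877 to 148046969 of chromosome 2 and Foxj1 (ENSMUSG00000034227) 116330704 to 116335399 of chromosome 11, both on the minus strand.

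Promoter windows, 250 bases before to 50 after a transcript start, were found for 4 of the 9 genes in the RefSeq table (GRCm38.p6). The windows of Nkx2-1 (chr12:56536859-56537158), Foxa1 (chr12:57546062-57546361) and the first of 3 for Foxa2 (chr2:148046920-148047219), all on the minus strand, are shown because these 3 factors were all higher in airway-rich lung spots, as described below. Capitals mark a match to the forkhead motif.

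Nkx2-1: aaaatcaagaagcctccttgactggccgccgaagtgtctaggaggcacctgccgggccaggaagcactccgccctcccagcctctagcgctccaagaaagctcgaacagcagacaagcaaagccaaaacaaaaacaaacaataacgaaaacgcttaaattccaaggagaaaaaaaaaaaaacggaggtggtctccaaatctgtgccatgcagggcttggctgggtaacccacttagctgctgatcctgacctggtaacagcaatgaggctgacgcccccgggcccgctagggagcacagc

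Foxa1: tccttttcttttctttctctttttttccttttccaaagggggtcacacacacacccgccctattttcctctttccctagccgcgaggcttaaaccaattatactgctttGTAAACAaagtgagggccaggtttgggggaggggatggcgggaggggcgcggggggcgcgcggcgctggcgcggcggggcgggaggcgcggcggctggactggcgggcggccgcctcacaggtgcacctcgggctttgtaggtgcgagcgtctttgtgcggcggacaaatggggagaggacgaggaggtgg

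Foxa2: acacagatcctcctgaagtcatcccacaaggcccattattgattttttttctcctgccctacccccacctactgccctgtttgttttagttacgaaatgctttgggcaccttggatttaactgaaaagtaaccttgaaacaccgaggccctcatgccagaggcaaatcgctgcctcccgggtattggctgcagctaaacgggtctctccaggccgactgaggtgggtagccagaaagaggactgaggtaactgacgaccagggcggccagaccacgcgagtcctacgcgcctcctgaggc

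The letters searched on both strands were TGTTTAC for forkhead, CAAGTG for NKX2 and AGGTGTGA for T-box factors. They occur in 3.65%, 13.6% and 1.28% of the 32851 promoter windows of the table. The only match in the windows of the 4 genes was 1 forkhead match in Foxa1, from position 110 of the window, on the strand opposite to the gene. The 3 windows shown had a GC content of 53.7% for Nkx2-1, 62.3% for Foxa1 and 54.3% for Foxa2, beside a median of 52.7% over all windows. They held 12, 26 and 12 CpG dinucleotides beside a median of 7. The windows of Foxa2 that are not shown had a GC content of 64.0% and 51.7%, with 23 and 13 CpG dinucleotides.

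The sections differed in depth and in tumour content. The kept spots held 13532158 UMIs in the primary tumour and 11122812 in the lung of Mouse_627, and 10890154 and 30240176 in those of Mouse_628, with medians of 1820 to 9174.5 UMIs per spot. The surfactant gene Sftpc was at 9985 and 5766 UMIs per 1000000 UMIs of the section (CPM) in the lungs of Mouse_627 and Mouse_628, against 0.296 and 7.44 CPM in the primary tumours. The summed CPM of 8 4T1 markers (Hmga2, Csf3, Mmp3, Mmp10, Mmp13, Plau, Fosl1 and Igf2bp2) was 4837 and 5608 in the primary tumours, and 139.6 in the lung of Mouse_627 against 1419 in that of Mouse_628. The lung of Mouse_628 thus carried far more tumour. Of the marker sums in the primary tumours, Mmp3 alone was 2439 CPM in Mouse_627 and 3238 CPM in Mouse_628, so spot classes from the sum lean on this gene. Genes of olfactory and vomeronasal receptors, which neither tissue should use, gave a measure of background: over 1178 such genes the median was 0.180 and 0.132 CPM in the lungs, 0.591 CPM in the primary tumour of Mouse_627 and 6.61 CPM in that of Mouse_628. Across all 4 sections 1342 spot barcodes recur, since the slides share 1 set of barcodes, and spots were kept apart by section.

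All 9 factors were detected in both lungs, above every receptor gene of the section. Tbx2 was at 196 CPM (95% exact Poisson interval 187 to 204) in the lung of Mouse_627 and 141 CPM (136 to 145) in that of Mouse_628. Foxf1 was at 159 CPM (152 to 167) and 63.7 CPM (60.9 to 66.6), and Nkx2-1 at 95.7 CPM (90.0 to 102) and 61.6 CPM (58.8 to 64.4). At these levels at least 1 UMI of Tbx2 was present in 65.9% and 71.0% of spots, of Foxf1 in 59.9% and 46.5%, and of Nkx2-1 in 43.5% and 43.7%, and no spot held more than 12 UMIs of any of them. These intervals, and those that follow, cover counting error only.

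The other 6 factors were read less often. Tbx3 was at 65.0 and 32.6 CPM in the lungs of Mouse_627 and Mouse_628, Tbx4 at 38.9 and 24.4 CPM, and Tbx5 at 37.0 and 23.2 CPM. Foxa2 was at 24.2 and 13.2 CPM, Foxa1 at 18.0 and 10.6 CPM, and Foxj1 at 22.9 and 10.4 CPM. Every factor was higher in CPM in the lung of Mouse_627, the one with less tumour, while the UMIs per spot of Tbx2 (1.28 and 1.53), Tbx4 (0.255 and 0.265), Tbx5 (0.242 and 0.252) and Nkx2-1 (0.627 and 0.670) were slightly higher in Mouse_628, whose spots were deeper. Levels of different genes are not compared with each other, because the number and capture of the probes differ between genes.

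In the primary tumour of Mouse_627, Foxf1 was at 10.9 CPM (9.25 to 12.8; 148 UMIs), above 99.9% of the receptor genes, and Tbx3 at 4.66 CPM (3.58 to 5.96; 63 UMIs), above 99.7% of them. Tbx2 was at 1.63 CPM, Foxa1 at 1.40 CPM, Tbx5 at 1.18 CPM and Foxj1 at 0.665 CPM. Nkx2-1, Foxa2 and Tbx4 had 3, 2 and 1 UMIs in the whole section of 2490 spots, below the median receptor gene. In the primary tumour of Mouse_628 only Foxf1, at 12.9 CPM (10.8 to 15.2), lay above the median receptor gene, and above 91.1% of them. The other 8 factors, from 3.21 CPM for Nkx2-1 to 6.43 CPM for Tbx4, were below that median and are read as background. When the spots of each primary tumour were split at their median depth, all UMIs of the deep spots were 11.4 times those of the shallow spots in Mouse_627 and 5.64 times in Mouse_628. Foxf1 had 14 UMIs in the shallow and 134 in the deep spots of Mouse_627, but 50 and 90 in Mouse_628, far below the ratio of depths. In Mouse_628 Tbx4 had 35 UMIs in both parts and Nkx2-1 had 24 and 11.

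**Figure D1:**
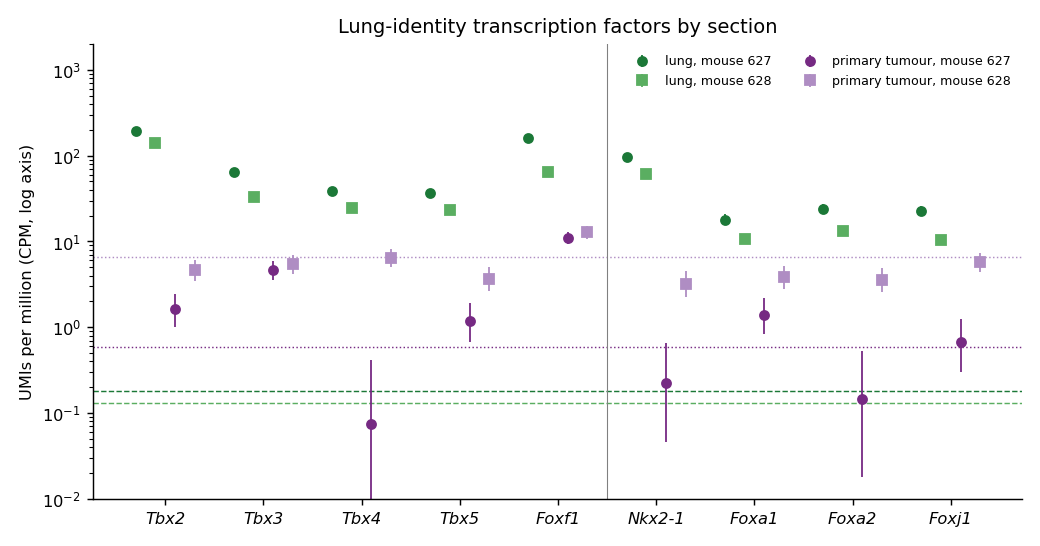
Level of the 9 factors in each section, in CPM on a log axis, with 95% exact Poisson intervals. Dashed and dotted lines give the median CPM of receptor genes in the lung and primary tumour section of the same colour. In the primary tumour of Mouse_628, Foxf1 alone stands above its line.

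The ratio of lung to primary tumour is a description, since it bears on how the genes were chosen. For Tbx2 it was 120 (79.2 to 192) in Mouse_627 and 30.02 (22.8 to 40.4) in Mouse_628, for Tbx3 14.0 (10.8 to 18.4) and 6.01 (4.62 to 7.96), and for Foxf1 14.5 (12.3 to 17.3) and 4.95 (4.17 to 5.92). For Tbx5 it was 31.3 (19.0 to 55.2) and 6.31 (4.59 to 8.91). For the 4 factors with the lowest ratios in Mouse_628 it was 3.79 there for Tbx4, 3.69 for Foxa2, 2.74 for Foxa1 and 1.79 for Foxj1. In Mouse_627 it was 527, 164, 12.8 and 34.5 for these genes in the same order, over tumour counts of 1, 2, 19 and 9 UMIs. For Nkx2-1 it was 431 (147 to 2096) in Mouse_627, where the tumour count was 3 UMIs, and 19.2 (13.7 to 27.6) in Mouse_628. A tumour level within the 95th percentile of the receptor genes cannot be told from background, and a ratio over it is not an estimate of the fold. That percentile was 19.0 CPM in the tumour of Mouse_628, above all 9 factors, and 1.70 CPM in that of Mouse_627, above all but Tbx3 (4.66 CPM) and Foxf1 (10.9 CPM). Every ratio was lower in Mouse_628, whose primary tumour had the higher background and whose lung had more tumour, and their part in the ratios was not tested. Of the related genes outside the 9, Foxf2, the paralogue of Foxf1, was at 28.0 and 15.1 CPM in the lungs and 0.369 and 3.31 CPM in the tumours. Tbx1 was at 13.6 and 8.63 CPM in the lungs and 2.66 and 2.11 CPM in the tumours. Tbx15, a T-box factor of limb and skin mesenchyme, had the opposite order, at 0.539 and 6.05 CPM in the lungs and 9.83 and 15.7 CPM in the tumours. The tumour level of these 3 genes in Mouse_628, and that of Foxf2 in Mouse_627, was also within the receptor genes' 95th percentile.

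The question that the lung sections allow is how the factors are distributed where tumour is dense. A lung spot was called tumour-rich where the summed CPM of the 8 markers reached at least 50% of that in the primary tumour section of the same mouse, and tumour-poor under 25%. This gave 201 tumour-rich spots in the lung of Mouse_628 and only 1 in that of Mouse_627, which held 613 UMIs and none of any factor. Of the spots of Mouse_628, 119 lay above the threshold by less than 20% of it and 225 below it by at most 20%. Tumour-rich spots in Mouse_628 therefore describe 1 animal, and their values are given with counting intervals and no test.

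In the lung of Mouse_628, all 9 factors were at a lower CPM in tumour-rich than in tumour-poor spots, and each had some UMIs in both. Among the mesenchymal factors, Tbx2 was at 64.4 CPM in tumour-rich spots and 196 CPM in tumour-poor spots, so that 32.9% (28.5 to 37.8) of its level was retained. Tbx4 retained 36.8% (26.1 to 50.6; 12.4 against 33.8 CPM), Foxf1 27.4% (21.7 to 34.1; 25.5 against 93.1 CPM) and Tbx5 25.5% (16.6 to 37.5; 8.20 against 32.2 CPM). Tbx3 was retained least of the 5, at 14.7% (9.47 to 21.9; 7.59 against 51.5 CPM). Among the epithelial factors, Nkx2-1 retained 20.8% (15.9 to 26.7; 19.4 against 93.4 CPM), Foxa2 17.7% (9.08 to 31.4; 3.64 against 20.5 CPM) and Foxa1 37.1% (21.9 to 59.1; 5.77 against 15.6 CPM). Foxj1 was read 3 times in the 201 spots, at 0.911 CPM against 17.0 CPM, or 5.35% (1.10 to 15.8). The interval of its CPM there, 0.188 to 2.66, included 0.397 CPM, the receptor genes' 95th percentile in that lung. Foxj1 in tumour-rich spots therefore cannot be told from background.

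The shares retained by mesenchymal factors (14.7% to 36.8%) and by epithelial factors (5.35% to 37.1%) overlapped. Beside the factors, the summed alveolar type 2 markers retained 20.1%, alveolar type 1 markers 20.7%, capillary endothelial markers 18.9% and lung fibroblast markers 28.5%. Airway secretory markers retained 8.42% and ciliated cell markers 9.35%, while pericyte and smooth muscle markers retained 46.1%. Of the lists that are not of lung structure, neutrophil markers retained 9.40% and lymphoid markers 18.5%, while keratinocyte markers were at 207% (163 to 262) and mammary luminal markers at 203% (189 to 219) of their level in tumour-poor spots. Tbx15 was at 10.0 CPM in tumour-rich spots and 3.74 CPM in tumour-poor ones.

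**Figure D2:**
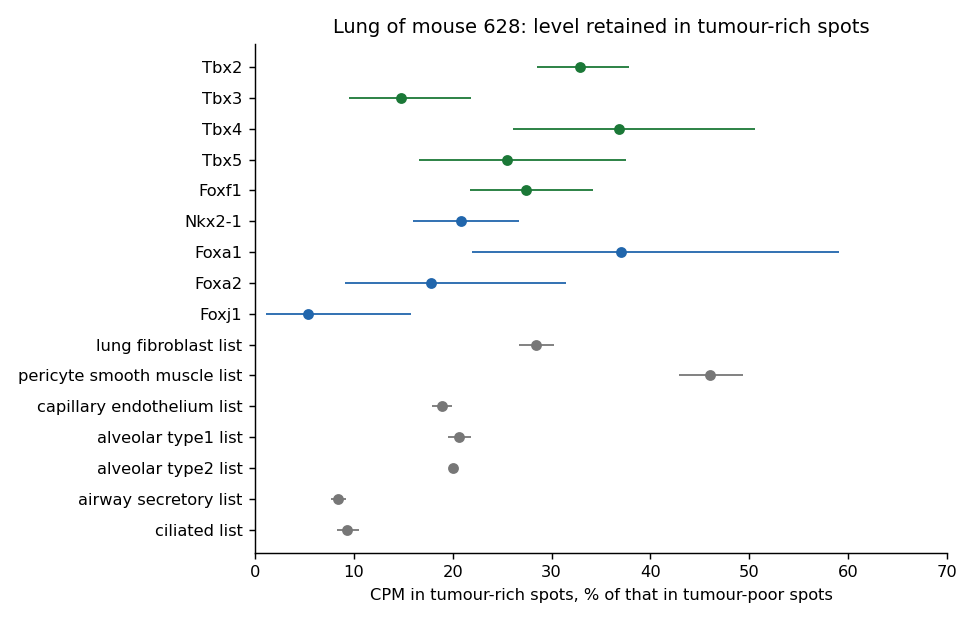
CPM in tumour-rich spots of the lung of Mouse_628 as a percentage of that in its tumour-poor spots, for the 9 factors (green mesenchymal, blue epithelial) and 7 marker lists (grey), with 95% counting intervals. Tbx3 and Foxj1 have the lowest values within their groups, with intervals that overlap those of Tbx5 and Foxa2, and the mesenchymal and epithelial factors overlap.

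Depth moved with these shares. The median tumour-rich spot held 15132 UMIs and the median tumour-poor spot 7973.5 UMIs, so that the same number of UMIs of a gene gives a lower CPM in the former. Counted per spot, tumour-rich spots held 63.5% of the Tbx2 UMIs of tumour-poor spots (1.05 against 1.66 UMIs), 71.0% for Tbx4, 71.5% for Foxa1, 52.9% for Foxf1, 49.2% for Tbx5 and 40.2% for Nkx2-1. The per-spot shares were 34.3% for Foxa2, 28.4% for Tbx3 and 10.3% for Foxj1. They differ from the shares in CPM by 1 factor, the ratio of mean depths, so their order is the same by construction. In these spots, fewer cells of a type and less RNA per cell cannot be told apart.

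In CPM, Tbx2, Tbx3 and Nkx2-1 were lower in each successive band of tumour marker level in the lung of Mouse_628. From the lung spots of Mouse_628 under 6.25% of the primary tumour marker level to those at 50% or more, in 5 bands of 732, 581, 609, 657 and 201 spots, Tbx2 was at 232, 197, 165, 79.6 and 64.4 CPM. Nkx2-1 went through 110, 98.1, 76.3, 25.8 and 19.4 CPM, and Tbx3 through 68.4, 55.5, 34.8, 11.2 and 7.59 CPM. Tbx4, Foxf1, Foxa2 and Foxj1 were also lower in each successive band. Tbx5 was at 34.8 and then 35.5 CPM in the first 2 bands, and Foxa1 at 4.42 and then 5.77 CPM in the last 2, both with overlapping counting intervals. The largest step for Tbx2, Tbx3 and Nkx2-1 came between the band of 12.5% to 25% and that of 25% to 50%. The median depth also went from 9839 to 15319 UMIs per spot there. Per spot, Tbx2 was at 1.62, 1.66, 1.71, 1.29 and 1.05 UMIs and Nkx2-1 at 0.769, 0.828, 0.788, 0.417 and 0.318 UMIs, with no decline over the first 3 bands, in which the median depth went from 6994.5 to 9839 UMIs. Tbx3 was at 0.478, 0.468, 0.360, 0.181 and 0.124 UMIs per spot. In the lung of Mouse_627 the first 3 bands, of 1436, 162 and 76 spots, gave 199, 177 and 184 CPM for Tbx2, 96.0, 103 and 82.0 CPM for Nkx2-1, and 68.3, 52.5 and 34.0 CPM for Tbx3. Tbx3 thus reached nearly the same CPM in both mice in each of these 3 bands. The band of 25% to 50% held 22 spots of Mouse_627, with Tbx2 at 90.5 CPM (43.4 to 166), Nkx2-1 at 63.4 CPM (25.5 to 131) and Tbx3 at 27.2 CPM (5.60 to 79.4).

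**Figure D3:**
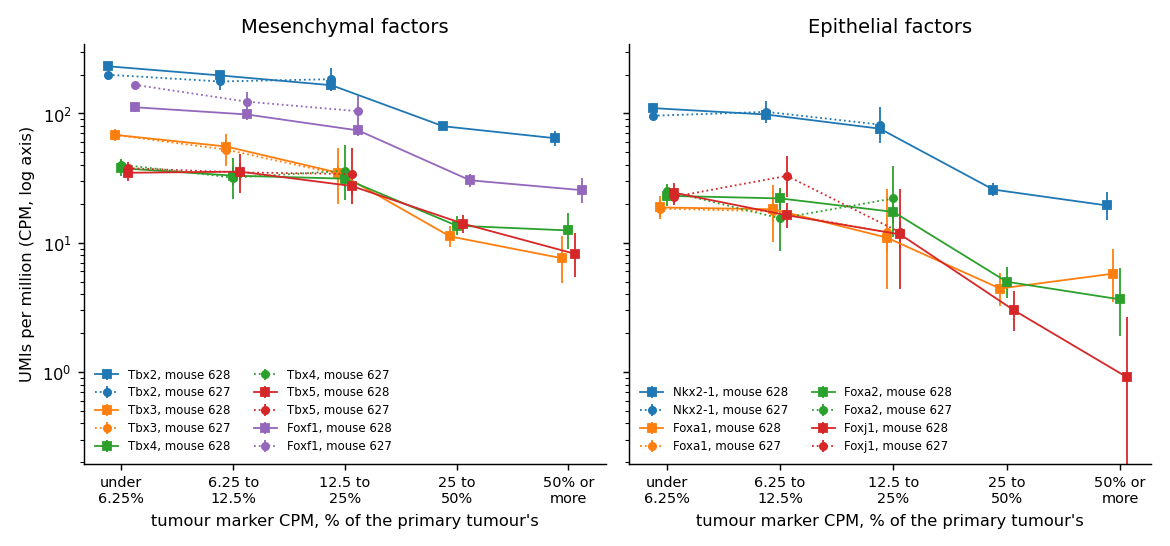
CPM of the mesenchymal (left) and epithelial (right) factors on a log axis in bands of lung spots by summed tumour marker CPM, as a percentage of that in the primary tumour of the same mouse. Bars are 95% exact Poisson intervals, squares Mouse_628 and circles Mouse_627, for which only the 3 lowest bands are drawn.

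Spots of the lung of Mouse_628 at 25% or more of the primary tumour level, a lower threshold than for tumour-rich spots, were taken as tumour areas. The 641 spots inside them were set apart from the 217 at their edge. In CPM, every factor except Tbx5 was higher at each successive place away from these areas. Tbx2 was at 71.4 CPM inside, 98.4 CPM at the edge, 151 CPM in the 495 spots next to an area, 204 CPM at 2 or 3 spots away and 222 CPM at 4 or more. Nkx2-1 was at 19.4, 48.3, 78.5, 98.1 and 100.4 CPM over the same places, and Tbx3 at 8.22, 20.8, 31.1, 55.0 and 64.1 CPM. Foxj1 was at 1.73 CPM inside and 21.3 CPM at 4 or more spots away. For each of these 4 factors the counting intervals of the 2 farthest places overlapped. Tbx5 was at 34.3 CPM next to an area, 28.9 CPM at 2 or 3 spots away and 33.6 CPM at 4 or more, with overlapping counting intervals. Spots inside the areas were also the deepest, with a median of 17014 UMIs against 8021 UMIs at 4 or more spots away. Per spot, Tbx2 was at 1.29 UMIs inside and 1.07 UMIs at the edge, the reverse of the order in CPM, and at 1.80 UMIs at the farthest. Nkx2-1 was at 0.349, 0.525 and 0.812 UMIs per spot in these 3 places. With areas made of tumour-rich spots instead, the order in CPM did not hold near the tumour. Inside, at the edge and next to an area, Nkx2-1 was at 19.6, 19.3 and 22.8 CPM and Tbx4 at 6.91, 18.6 and 14.5 CPM. Foxa1 was at 7.49, 3.85 and 4.14 CPM there, and Tbx5 at 7.49, 8.99 and 11.1 CPM. Tbx3, Foxf1 and Foxa2 also had a reversed step. Counting intervals overlapped at all reversed steps.

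**Figure D4:**
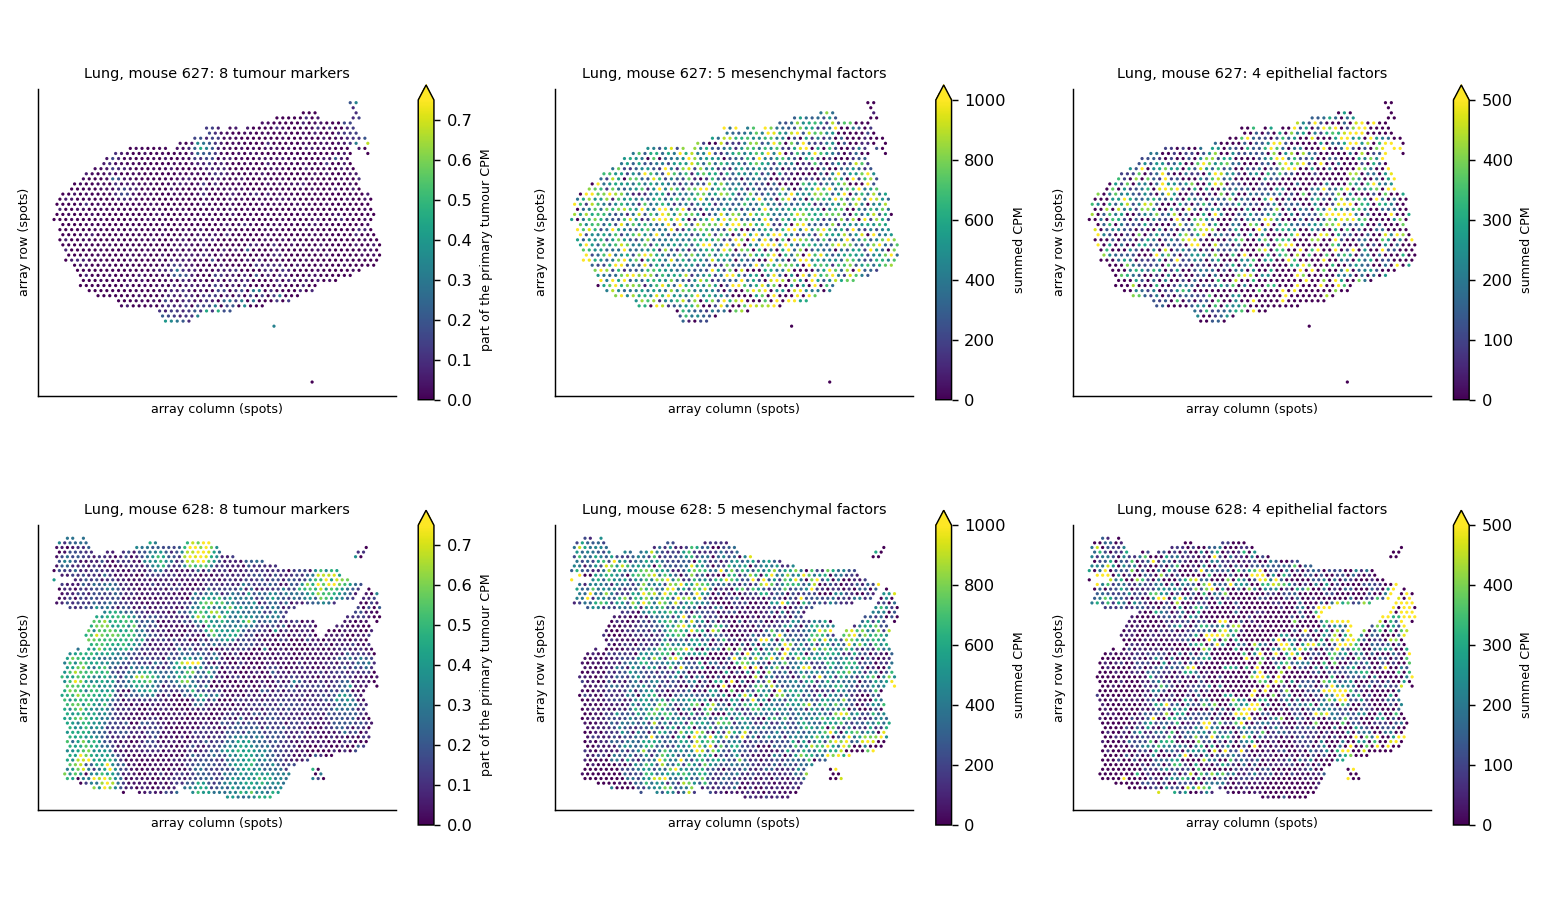
Lung spots of Mouse_627 (top) and Mouse_628 (bottom) at their array positions, coloured by the summed tumour marker CPM as a part of the primary tumour's (left), and by the summed CPM of the mesenchymal (middle) and epithelial (right) factors, each capped at the top of its scale. Areas bright for tumour markers in Mouse_628 are dark for both groups of factors, and the epithelial factors form patches.

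A comparison that uses both mice was added after the data were seen, of lung spots at 12.5% or more of the primary tumour marker level (99 in Mouse_627 and 1467 in Mouse_628) against those under 6.25% (1436 and 732). In Mouse_627 the richer spots were at 167 CPM of Tbx2 and the poorer at 199 CPM, and in Mouse_628 they were at 104 and 232 CPM. Tbx3 was at 32.7 against 68.3 CPM and 18.0 against 68.4 CPM, Foxf1 at 99.8 against 166 CPM and 43.1 against 112 CPM, and Nkx2-1 at 78.6 against 96.0 CPM and 40.5 against 110 CPM. Foxj1 was at 11.5 against 22.6 CPM and 5.34 against 24.4 CPM. The richer spots were at a lower CPM in both mice for all 9 factors, but in Mouse_627 the 95% counting interval of the share retained included 100% for all except Tbx3 (47.9%, 29.1 to 74.6) and Foxf1 (59.98%, 45.7 to 77.5). Per spot, the richer spots of Mouse_628 held 98.8% of the Tbx4 UMIs and 97.8% of the Tbx5 UMIs of the poorer ones, so that the lower CPM of these 2 genes there went with a greater depth. The per-spot shares of the other factors there lay between 43.1% (Foxj1) and 88.2% (Tbx2). In Mouse_627 the richer spots were shallower (median 5308 against 6707.5 UMIs), and the per-spot shares were 72.0% for Tbx4 and 68.5% for Tbx5.

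With the UMIs summed per mouse and class, edgeR's quasi-likelihood test called no gene in this comparison without the mouse in the model (0 of 13216 genes; 4639 at an unadjusted p under 0.05; smallest adjusted p 0.0829). With the mouse as a block, 21.5% of genes were called lower and 21.3% higher, and all 9 factors were among the lower ones, with adjusted p between 6.50e-05 and 0.00381 (0.0829 to 0.130 without the block). In this blocked edgeR fit the log2 fold change was −2.12 ± 0.32 (SE) for Foxj1 and −1.84 ± 0.23 for Tbx3. It was −1.42 ± 0.33 for Foxa1, −1.28 ± 0.19 for Foxf1, −1.27 ± 0.30 for Foxa2 and −1.17 ± 0.24 for Nkx2-1, and between −0.92 ± 0.22 (Tbx2) and −1.02 ± 0.22 (Tbx5) for the other 3, the last of them Tbx4 at −0.98 ± 0.22. Without the block and the richer sum of Mouse_628, the folds lay between −1.23 (Tbx3) and −0.36 (Foxa2) and none of the 9 was called by edgeR. Since the genes were chosen as low in tumour tissue, this count is a description and nothing is read from it. The comparison as designed, of tumour-rich and tumour-poor spots, called 18.7% of 12870 genes lower without the block and named 8 of the 9 factors, Tbx2 excepted (adjusted p = 0.0728). It rests on 1 spot of Mouse_627, and no call is read from it. With Mmp3, the marker with the most UMIs in the lungs, left out of the marker sum, 15 spots of Mouse_627 and 645 of Mouse_628 were tumour-rich, and all 9 factors were among the 19.5% of 13359 genes that edgeR called lower without the block. This count too is a description, and nothing is read from it.

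Within the lung, the factors did not all follow the same structures. The 5% of spots of each lung highest in airway secretory markers (85 in Mouse_627, 139 in Mouse_628) shared 78.8% and 77.0% of their number with the 5% highest in ciliated cell markers and 36.5% and 47.5% with the 5% highest in pericyte and smooth muscle markers, so that parts of the airway wall were not separated. Foxj1 was at 184 CPM in the airway-rich spots of Mouse_627 and 14.2 CPM in its other spots, and at 195 and 4.14 CPM in Mouse_628. Foxa1 was at 73.8 against 15.0 CPM and 90.2 against 7.896 CPM, and Foxa2 at 47.4 against 22.9 CPM and 59.8 against 11.7 CPM. Nkx2-1 was at 130 against 93.8 CPM and 163 against 58.1 CPM. The 4 epithelial factors were higher in airway-rich spots of both lungs, Foxj1 by the largest ratio (13.0 and 47.0) and Nkx2-1 by the smallest (1.39 and 2.81). Over tiles of spots (described below), the r of Nkx2-1 with the summed airway secretory markers was −0.06 in Mouse_627 and 0.50 in Mouse_628. It was 0.80 and 0.88 for Foxj1, 0.26 and 0.71 for Foxa1, and 0.38 and 0.58 for Foxa2.

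This comparison, added after the data were seen, was tested on UMIs summed per mouse. With the mouse as a block, 10.9% of 13379 genes were called higher and 2.23% lower by edgeR, and the higher ones included Foxj1 (log2 fold change 4.48 ± 0.32 SE, adjusted p = 1.57e-40), Foxa1 (2.80 ± 0.32, adjusted p = 4.98e-16), Foxa2 (1.61 ± 0.34, adjusted p = 3.79e-05) and Nkx2-1 (0.85 ± 0.28, adjusted p = 0.0263). Without the block, edgeR called 1.70% of genes higher and none of the factors was among them, with an adjusted p of 0.0522 for Foxj1, 0.0667 for Foxa1, 0.372 for Foxa2 and 0.674 for Nkx2-1. With 1 sum left out and no block, the log2 fold change ranged from 3.55 to 5.47 for Foxj1 and from 2.28 to 3.34 for Foxa1. It ranged from 1.06 to 2.17 for Foxa2 and from 0.47 to 1.29 for Nkx2-1. Nkx2-1 was lowest, at 0.47, without the other spots of Mouse_628. None of the 5 mesenchymal factors was called with the block. Their log2 fold changes were −0.77 ± 0.33 for Tbx3, −0.45 ± 0.29 for Foxf1, −0.42 ± 0.29 for Tbx2, 0.36 ± 0.33 for Tbx5 and 0.60 ± 0.32 for Tbx4. Without the block, the log2 fold change was −1.32 for Tbx3 and −1.13 for Foxf1 once the other spots of Mouse_628 were left out. It was 1.03 for Tbx4 once those of Mouse_627 were. Among 22 tested other epithelial regulators 10 were called higher with the block and 2 without it, led by Sox2 (4.31 ± 0.48, adjusted p = 1.52e-17), Trp73 (3.80 ± 0.42, adjusted p = 1.35e-17), Spdef (3.67 ± 0.77) and Ehf (2.91 ± 0.33), which are known from airway basal, ciliated and secretory cells.

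Tbx5, which is also a factor of the heart, was higher in spots rich in cardiac muscle markers such as Myh6. It was at 57.1 CPM in the 85 cardiac-rich spots of Mouse_627 against 36.0 CPM elsewhere, and at 72.3 CPM in the 139 of Mouse_628 against 21.5 CPM. Tbx2 had the opposite order, at 156 against 197 CPM and 85.0 against 143 CPM. As for airway-rich spots, the other spots of Mouse_628 included its tumour areas. With the mouse as a block, edgeR called 6.07% of 13139 genes in either direction (534 higher and 263 lower), with Tbx5 among the higher (log2 fold change 1.26 ± 0.22 SE, adjusted p = 4.74e-07) and Tbx2 among the lower (−0.60 ± 0.16, adjusted p = 0.00495). The other 7 were not called. Foxj1 was also higher by its values, at 45.3 against 21.9 CPM and 15.6 against 10.2 CPM (log2 fold change with the block 0.80 ± 0.32). Its r with the summed cardiac markers over tiles of spots (described below) was 0.51 and 0.53, against 0.03 and 0.39 for Tbx5. Cardiac-rich spots shared 15.3% and 6.47% of their number with airway-rich spots and 24.7% and 27.3% with those rich in pericyte and smooth muscle markers. Without the block edgeR called 0 genes (366 genes at an unadjusted p under 0.05), and with 1 sum left out the fold ranged from 0.77 to 1.65 for Tbx5, from −1.14 to −0.18 for Tbx2 and from −0.19 to 1.61 for Foxj1, with no call. The 5% of spots concerned held 29 of 411 and 74 of 701 Tbx5 UMIs of the lungs. As background, mouse pulmonary veins carry a sleeve of cardiac muscle.

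In the top 5% of spots for alveolar type 2 markers, Nkx2-1 was at 150 CPM against 92.3 CPM elsewhere in Mouse_627 and 138 against 57.9 CPM in Mouse_628. Foxj1 was low there, at 12.5 and 1.43 CPM. Foxf1 was at 219 against 157 CPM and 145 against 61.4 CPM in the top 5% for capillary endothelial markers, and Tbx2 at 242 against 194 CPM and 240 against 137 CPM in the top 5% for alveolar type 1 markers. Tbx3 in the capillary-rich spots was at 79.9 against 64.4 CPM and 92.5 against 30.9 CPM. In Mouse_628 every spot of a lung list stands against a remainder that includes the tumour areas, and the ratios were higher there than in Mouse_627 for each value in this paragraph except that of Foxj1, which was lower. In the top 5% of spots for neutrophil markers, Tbx3 was at 43.0 against 66.2 CPM in Mouse_627 and 96.8 against 30.3 CPM in Mouse_628, while over tiles of spots its r with the summed neutrophil markers was 0.55 and 0.80.

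**Figure D5:**
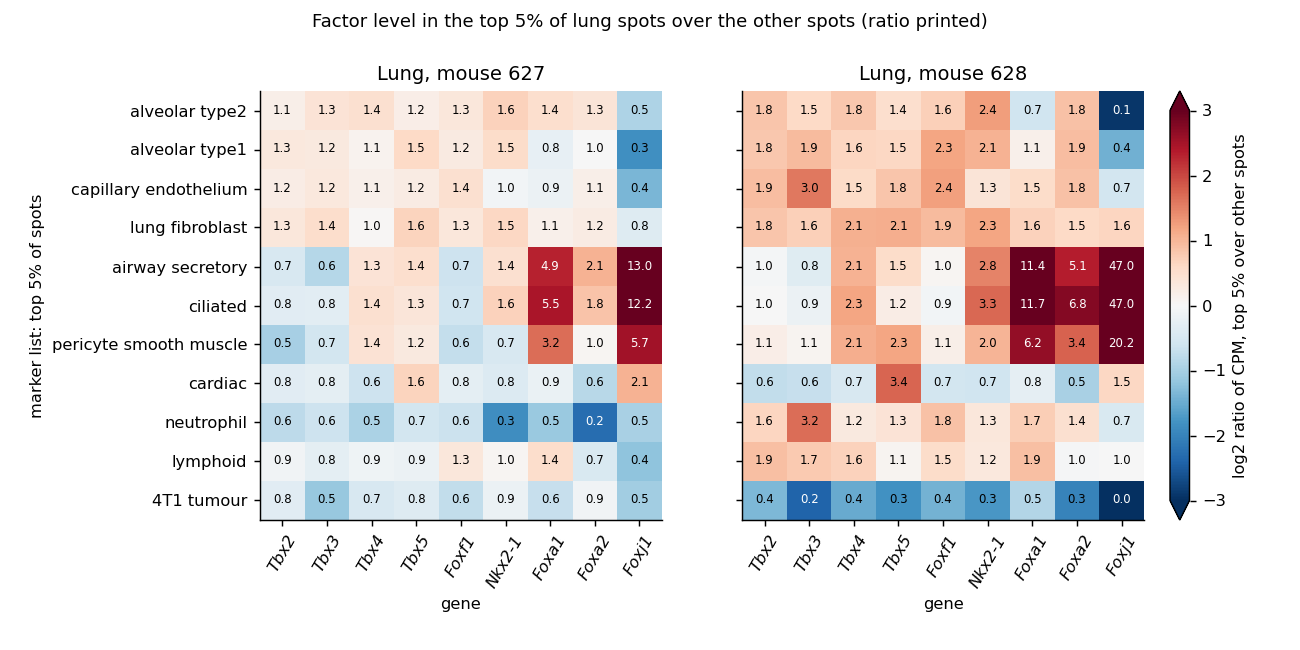
Ratio of the CPM of each factor in the top 5% of lung spots by each marker list to that in the other spots of the same lung, printed in each cell and coloured on a log2 scale from −3 to 3. Foxj1, Foxa1 and Foxa2 are high in the airway secretory and ciliated rows of both lungs, and Tbx5 and Foxj1 in the cardiac row.

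Genes with the most similar pattern were sought over square tiles of neighbouring spots, 52 in the lung of Mouse_627 and 87 in that of Mouse_628, by Pearson's r of log2(CPM + 10) within each lung. Tiles share a section, depth and tissue composition, so r is a description. The highest lower r of the 2 lungs for Tbx2 was with Ace (0.84 and 0.91 in Mouse_627 and Mouse_628), Adgrf5 (0.88 and 0.83) and Spock2 (0.82 and 0.83). For Foxf1 it was with Clec1a (0.88 and 0.84), Ramp2 (0.83 and 0.87) and Adgrf5 (0.82 and 0.84), and for Tbx3 with Hopx (0.76 and 0.81), Gpihbp1 (0.76 and 0.81) and Themis2 (0.75 and 0.79). Several of these, such as Ramp2, Gpihbp1 and Ace, are genes of capillary endothelium. Nkx2-1 was most like Hopx (0.67 and 0.83), Tspan8 (0.67 and 0.69) and Gpx3 (0.66 and 0.79).

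The remaining 5 had less sharp patterns, apart from Foxj1. Foxj1 was most like Dnah12 (0.90 and 0.88), Lypd2 (0.87 and 0.92) and Cfap43 (0.86 and 0.89), of which Dnah12 and Cfap43 encode proteins of the ciliary axoneme. Foxa2 was most like Gsta3 (0.57 and 0.69), Myo1d (0.57 and 0.64) and Sgce (0.68 and 0.55), and Foxa1 like Gsn (0.52 and 0.77), Fam174b (0.51 and 0.54) and Mlf1 (0.51 and 0.61). Tbx4 was most like Por (0.59 and 0.65), Iqgap2 (0.68 and 0.58) and Abca13 (0.58 and 0.59), and Tbx5 like Trp53inp1 (0.55 and 0.53), Fgfr3 (0.54 and 0.50) and Nrp1 (0.51 and 0.49). With larger tiles (21 and 33), the 5 most similar genes of Tbx3, Tbx4, Tbx5, Foxa1 and Foxa2 had none in common with the 5 found here. Nkx2-1 kept 1 (Sept4), which is not among the 3 named above, so the genes named for these 6 factors depend on the tiles. Foxj1 kept 4 of 5, without Dnah12, and Tbx2 and Foxf1 kept 3 each, for Foxf1 without Adgrf5. Among the factors themselves, Tbx2 and Foxf1 went together in both lungs (0.73 and 0.71), as did Tbx3 and Nkx2-1 (0.56 and 0.61). Close to these were Tbx2 with Nkx2-1 (0.54 and 0.72) and with Tbx3 (0.50 and 0.67). Foxf1 with Nkx2-1 (0.50 and 0.62) and with Tbx3 (0.48 and 0.78), and Tbx4 with Foxa2 (0.52 and 0.52), were also close. Foxa1 and Foxj1 had r of 0.37 and 0.76. The neighbouring genes were not alike in both lungs, with r of −0.02 and 0.59 for Tbx2 and Tbx4 and 0.05 and 0.33 for Tbx3 and Tbx5. Over the 10 mesenchymal pairs the median r was 0.29 in Mouse_627 and 0.53 in Mouse_628, over the 6 epithelial pairs 0.16 and 0.50, and over the 20 mixed pairs 0.08 and 0.48. With the larger tiles these medians were 0.14 and 0.68, 0.26 and 0.59, and 0.05 and 0.60, so the order of the groups of pairs is not read. Foxj1 with Tbx2 had r of −0.58 in Mouse_627 and 0.15 in Mouse_628.

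The other regulators of lung development were counted from fixed lists of 24 epithelial and 24 mesenchymal transcription factors and 20 signals and targets, some of which are also in the marker lists (Hopx, Etv5, Tcf21, Wnt2). In the comparison of richer with poorer lung spots (mouse as a block), 10 of 21 tested epithelial regulators were called lower by edgeR and 2 higher, beside 21.5% and 21.3% of all genes, with a median log2 fold change of −0.78 beside −0.02 over all genes and −1.27 over the 9 factors. The lower ones were led by Foxp2 (−2.78 ± 0.89 SE, adjusted p = 0.0211, at most 2.10 CPM in the lung classes), Trp73 (−2.31 ± 0.50), Sox2 (−1.60 ± 0.60, adjusted p = 0.0457; at 6.55 against 5.03 CPM in Mouse_627 and 1.39 against 5.47 CPM in Mouse_628) and Hopx (−1.42 ± 0.24, adjusted p = 0.000459). The higher ones were Sox9 (1.87 ± 0.36, adjusted p = 0.00105), a factor of distal lung progenitors and of many carcinomas, and Irx2 (1.27 ± 0.22, adjusted p = 0.000527). Sox9 was at 79.7 and 174 CPM in the primary tumours and at 2.88 and 23.7 CPM in the lungs.

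With the block, 6 of 19 tested mesenchymal regulators were called higher and 4 lower by edgeR (median 0.11), beside 21.3% and 21.5% of all genes. Foxc2 (2.56 ± 0.32 SE, adjusted p = 6.94e-05), Twist1 (2.07 ± 0.38, adjusted p = 0.000697), Gli3 (2.05 ± 0.23, adjusted p = 3.68e-05) and Foxc1 (1.98 ± 0.22, adjusted p = 3.85e-05) led the higher ones, and each of these was also higher in both primary tumours than in either lung. Tcf21 (−1.82 ± 0.26, adjusted p = 0.000143), a factor of lung fibroblasts, Hoxb5 (−1.34 ± 0.42), Foxf2 (−0.99 ± 0.25) and Meis1 (−0.71 ± 0.21) were the lower ones. Of 16 tested signals and targets, 3 were called higher, beside 21.3% of all genes, namely Wnt7b (2.54 ± 0.22, adjusted p = 1.39e-05), Fgfr2 (1.34 ± 0.18) and Hhip (0.71 ± 0.22), and 6 lower, beside 21.5% of all genes (median −0.40), led by Scgb3a2 (−1.78 ± 0.25), an airway secretory gene, Shh (−1.64 ± 0.44), Wnt2 (−1.42 ± 0.40) and Bmp4 (−1.19 ± 0.29). In Mouse_627 Shh was at 13.1 against 14.3 CPM and Bmp4 at 27.8 against 30.6 CPM, and in Mouse_628 at 3.02 against 11.9 CPM and 9.84 against 25.8 CPM, so that most of both folds came from Mouse_628. Without the block none of these was called, with adjusted p from 0.0829 to 0.182 for the genes named.

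Between whole sections, edgeR called 6.31% of 15267 genes higher and 1.15% lower in lung than in primary tumour, and 9.17% and 2.73% with the mouse as a block. Of 23 tested epithelial regulators 3 were higher and 1 lower (4 and 2 with the block), with a median log2 fold change of 0.96. These were Hopx (log2 fold change with the block 5.81 ± 0.55 SE, adjusted p = 3.57e-23), Cebpa (2.80 ± 0.49, adjusted p = 5.02e-07), Myb (2.83 ± 0.68, adjusted p = 0.00053) and, lower in lung, Sox9 (−3.49 ± 0.47, adjusted p = 8.99e-12), joined with the block by Gata6 and Irx2. Of 21 mesenchymal regulators 3 were higher and none lower without the block, and 3 higher and 4 lower with it. Tcf21 (4.60 ± 0.69), Foxf2 (4.30 ± 0.94) and Heyl (3.55 ± 0.55) were higher, and Twist1 (−2.27 ± 0.51), Foxc2 (−1.90 ± 0.52), Foxc1 (−1.75 ± 0.46) and Gli3 (−1.75 ± 0.46) were lower with the block. Of 18 signals and targets 5 were higher (6 higher and 2 lower with the block), among them Sftpc, a target of Nkx2-1, at 12.13 ± 1.69, Scgb3a2 at 6.37 ± 0.55 and Bmp4 at 2.91 ± 0.80. With the block only, Fgf10 (5.67 ± 1.93) was called higher, and Wnt7b (−2.27 ± 0.51) and Fgfr2 (−1.57 ± 0.54) lower. In the primary tumour of Mouse_628 each of the genes named here as higher in lung was at or below 8.72 CPM (Heyl), within the receptor genes' 95th percentile of 19.0 CPM, so these folds are not estimates either. For the 9 factors the median log2 fold change with the block was 4.06, beside 0.01 over all genes, which describes how they were chosen.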

How the data were processed

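Formalin-fixed, paraffin-embedded sections of primary tumour and lung from 2 mice were measured by Visium with a mouse transcriptome probe set. The authors processed the reads with Space Ranger against mm10, per the submitters' processing notes, and deposited whole-number UMI counts of each gene in each spot without normalisation. Probes read a short part of each transcript, so levels are compared within a gene only.

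A spot was used where over 200 genes had a UMI. CPM are per section, class or tile total, with 95% exact intervals for counting error. The members, marker lists and regulator lists were chosen with earlier results of these data known. UMIs were summed per mouse and class, low genes were filtered with filterByExpr, TMM factors were computed, and classes were compared with edgeR 4.0.16 (glmQLFit and glmQLFTest, two-sided, Benjamini-Hochberg over all genes tested, threshold 0.05), in R 4.3.3. With 2 mice, p-values rest on 4 sums. Named regulators are up to 4 in each direction per list with the largest fold changes among those called with the block. Named similar genes are the 3 per factor with the highest lower r of both lungs, over tiles of 12 array columns by 6 rows with at least 12 kept spots. Tumour-rich spots were nearly confined to the lung of Mouse_628, so a comparison at lower thresholds, and those of airway-rich and cardiac-rich spots, were added after seeing the data. Classes of a lung come from the same animal, so the mouse was used as a block. The correlation of same-mouse deviations was -0.293 for lung against primary tumour, 0.457 for richer against poorer, 0.476 for airway-rich and 0.708 for cardiac-rich spots. DESeq2 1.42.0, no filter on low counts, other thresholds, tiles and normalisations, and leaving out each sum were alternatives. The steps were tested on simulated data.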

Additional observations from a re-analysis of the deposited data

How the results depend on the processing

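With 2 mice and 1 section of each tissue per mouse, most counts of calls moved with the model. Tumour-rich against tumour-poor spots gave 3469 genes called by edgeR without the block, 5763 with the replicate block, 2 by DESeq2, 0 at the lower thresholds without the block and 5661 with it, and 0 to 5726 with each sum left out. It gave 0 without the tumour-rich sum of Mouse_628, 1635 without that of Mouse_627 and 5726 without the tumour-poor sum of Mouse_628. Richer against poorer spots at the lower thresholds gave 0 without and 5661 with the block, and 0 to 4875 with a sum left out. Lung against primary tumour gave 1139, or 1817 with the block, 2644 by DESeq2 and 2022 with no filter on low counts, and 883 to 6604 with a section left out (6604 without the primary tumour of Mouse_627, 2519 without the lung of Mouse_628). Crossing the pairs in that comparison, where the pair correlation was negative, gave 2565 calls. Airway-rich spots gave 227 without and 1751 with the block (327 to 2120 with a sum left out), and cardiac-rich spots 0 without and 797 with it (34 to 106). The cause of these differences was not tested.

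All 9 factors kept a negative log2 fold change in tumour-rich against tumour-poor spots in every alternative for which a fold is given here. Tbx2, not called at −1.85, was called at −1.68 with Mmp3 left out and at −0.92 at the lower thresholds with the block, calls from which nothing is read. The other 8, called by edgeR, were not called by DESeq2, where they were −2.81 for Tbx3, −1.56 for Tbx4, −1.95 for Tbx5, −2.53 for Foxf1, −2.41 for Nkx2-1, −1.21 for Foxa1, −2.12 for Foxa2 and −3.08 for Foxj1. At the lower thresholds without the block the same 8, also not called, were −1.78 for Tbx3, −0.95 for Tbx4, −0.99 for Tbx5, −1.24 for Foxf1, −1.06 for Nkx2-1, −1.36 for Foxa1, −1.20 for Foxa2 and −2.01 for Foxj1. Foxf1 was not called with the replicate block in the tumour-rich comparison (−2.09). With a sum left out, Tbx2 ranged from −2.21 to −1.80, Foxf1 from −3.02 to −2.07 and Foxa1 from −1.89 to −1.63. No fold is given without the tumour-rich sum of Mouse_628, since the spot left has 0 UMIs of each factor. At the lower thresholds, without the block and with a sum left out, the folds ranged from −1.20 to −0.54 for Tbx2, −2.08 to −1.23 for Tbx3, −1.20 to −0.50 for Tbx4, −1.22 to −0.56 for Tbx5, −1.85 to −0.66 for Foxf1, −1.50 to −0.56 for Nkx2-1, −1.62 to −0.67 for Foxa1, −1.64 to −0.36 for Foxa2 and −2.29 to −1.21 for Foxj1, each nearest 0 without the richer sum of Mouse_628. Folds changed sign when a sum was left out for Tbx5 (−0.03 to 0.80) and Foxf1 (−1.13 to 0.35) in airway-rich spots. In cardiac-rich spots they did so for Tbx3 (−1.42 to 0.19), Foxf1 (−1.52 to 0.49), Foxa1 (−0.85 to 0.22) and Foxj1 (−0.19 to 1.61).

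Of the other regulators, 11 epithelial, 10 mesenchymal and 7 signalling genes were called in the tumour-rich comparison, against 0, 0 and 0 by DESeq2 and 0, 0 and 0 at the lower thresholds without the block, and 0 to 12, 0 to 12 and 0 to 7 with a sum left out. The tumour-rich comparison tested 20, 19 and 16 genes of these lists. Of all 12870 genes tested there, edgeR called 3469 and DESeq2 called 2. At the lower thresholds without the block, 21, 19 and 16 were tested, and 0 of all 13216 genes were called. The tumour-rich class held 1 spot of Mouse_627, so no call in that comparison is read. Between lung and primary tumour, edgeR called 1139 of 15267 genes over all, 2022 of 19314 with no filter and 2565 of 15267 with crossed pairs. It called 962 of 14903 with airway and cardiac spots left out and 1817 of 15267 with the block, and DESeq2 called 2644 of 15267. Beside these, the 4 epithelial calls became 7 with no filter, 9 with crossed pairs and 2 with airway and cardiac spots left out. The 3 mesenchymal calls became 7 with the block and 8 with crossed pairs, and the 5 signalling calls 8 with the block, 9 by DESeq2 and 10 with crossed pairs. With a section left out they were 3 to 10, 2 to 8 and 4 to 8. With TMM library sizes the mean level in the primary tumours was 4.27 CPM for Tbx3 and 10.1 CPM for Foxf1, the 2 levels that moved of 45 compared. Stricter thresholds for tumour-rich spots, and leaving out airway and cardiac spots there, were not run because they leave no tumour-rich spot in the lung of Mouse_627. Where a class keeps 1 sum, its spread was taken to be that of the other.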
